A study of Mus musculus with 9 samples.

Results

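The 10 genes described here build, crosslink and remodel the extracellular matrix. They were chosen by symbol, with earlier results of these data known, and matched by Entrez gene number. They are 10 of the 17963 genes in the deposited table. They comprise 3 lysyl oxidases (Lox, Loxl1 and Loxl2), 2 large components of provisional matrix (Fn1, which encodes fibronectin, and Vcan, which encodes the proteoglycan versican), 3 matricellular proteins (Tnc, Postn and Sparc) and 2 matrix metalloproteases (Mmp14 and Mmp2). RNA from kidney cortex of wild-type mice was sequenced on day 4 in 3 groups of 3 libraries. The YSJZD group had received cisplatin into the peritoneum and Yishen Jiangzhuo decoction, a herbal preparation, into the stomach. The cisplatin group had received the same drug, a platinum compound used against tumours that damages kidney tubules, and pure water. The control group had received saline and pure water, so no group received the decoction without cisplatin. The labels used here state no age, sex, strain or dose.

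Lysyl oxidases oxidise lysine side chains of collagen and elastin, and the products react to form the covalent crosslinks that stiffen fibres. Fibronectin and versican are laid down early in a wound and give cells and collagen a scaffold, while tenascin C, periostin and SPARC signal to cells more than they carry load. Mmp14 encodes a membrane-anchored protease that activates pro-MMP2, and MMP2 in turn cuts denatured collagen and basement membrane collagen. In kidney, these genes are known mainly from fibroblasts, pericytes, mesangial cells and vessel walls, and several of them also from injured tubules and macrophages.

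Library totals lay between 15029286 and 16690482 expected counts, and 13954 genes passed the filter on low counts, all 10 genes described here among them. The labels do not say that the 3 samples of a group came from separate mice, so p-values measure only the spread between these samples, which may be technical. Cisplatin replicate 3 stood apart for these genes: in 9 of the 10 it was the lowest cisplatin library, and its CPM (counts scaled to a common library total after TMM normalisation) ranged from 0.286 to 0.712 of the mean of the other 2 cisplatin libraries. Mmp14 was the exception, at 1.08 of that mean, and the median over all tested genes was 0.988. Each comparison below that rests on this library is therefore also described without it where the call differs. The tissue label was checked against tubule markers: summed over 6 proximal tubule transporters and receptors, the level was 3999 to 8765 CPM with YSJZD, 651.7 to 1114 with cisplatin alone and 14953 to 17137 in controls.

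With cisplatin, 8 of the 10 genes rose relative to control, each at least 2-fold, and 2 (Postn and Sparc) did not pass the test (edgeR's quasi-likelihood test, Benjamini-Hochberg adjusted p under 0.05 over all tested genes). Of all 13954 tested genes, 54.6% were called in either direction in the same comparison, 28.6% higher and 26.0% lower, and 18.6% were called at least 2-fold higher. The median log2 fold change of the 10 genes was 2.50, with a range of 0.50 to 5.71, against 0.04 over all tested genes. With the decoction added to cisplatin, 9 of the 10 genes fell relative to cisplatin alone, each at least 2-fold, against 18% of all tested genes (2516) called lower, 17.4% called higher (35.4% in either direction) and 11.3% called at least 2-fold lower. Here the median log2 fold change was -2.23 and the range -3.93 to -1.21, against -0.01 over all tested genes. Against control, the YSJZD group had 2 genes higher (Lox and Mmp14), while the other 8 did not pass the test, and 19.3% of all tested genes were called in either direction and 9.93% higher. The spread of each gene was estimated over all 9 libraries, so that of the cisplatin libraries enters this comparison too. In a fit of the 6 libraries compared alone, 3 of the 10 genes and 3022 genes in all were called. The comparisons share libraries with each other, so their values are set side by side and are not independent. The 10 genes were chosen with earlier results of these data known, so the shares over all tested genes are given for scale only.

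**Figure D1:**
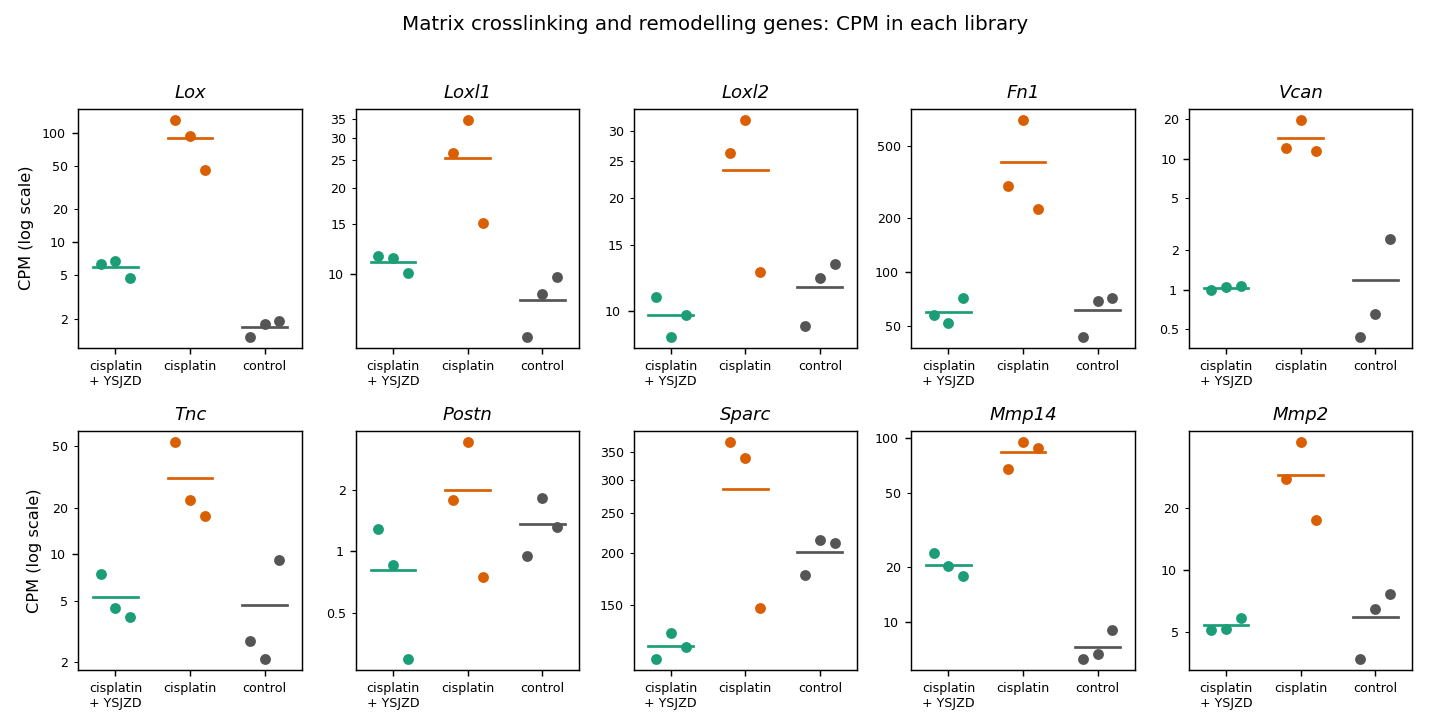
CPM of each gene on a log axis in each of the 9 libraries, with a panel per gene; points are libraries and bars are group means. The cisplatin libraries lie above both other groups for Lox, Loxl1, Fn1, Vcan, Tnc, Mmp14 and Mmp2. Cisplatin replicate 3 (the right-hand point of its group) lies within or below the control range for Sparc, Loxl2 and Postn.

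**Figure D2:**
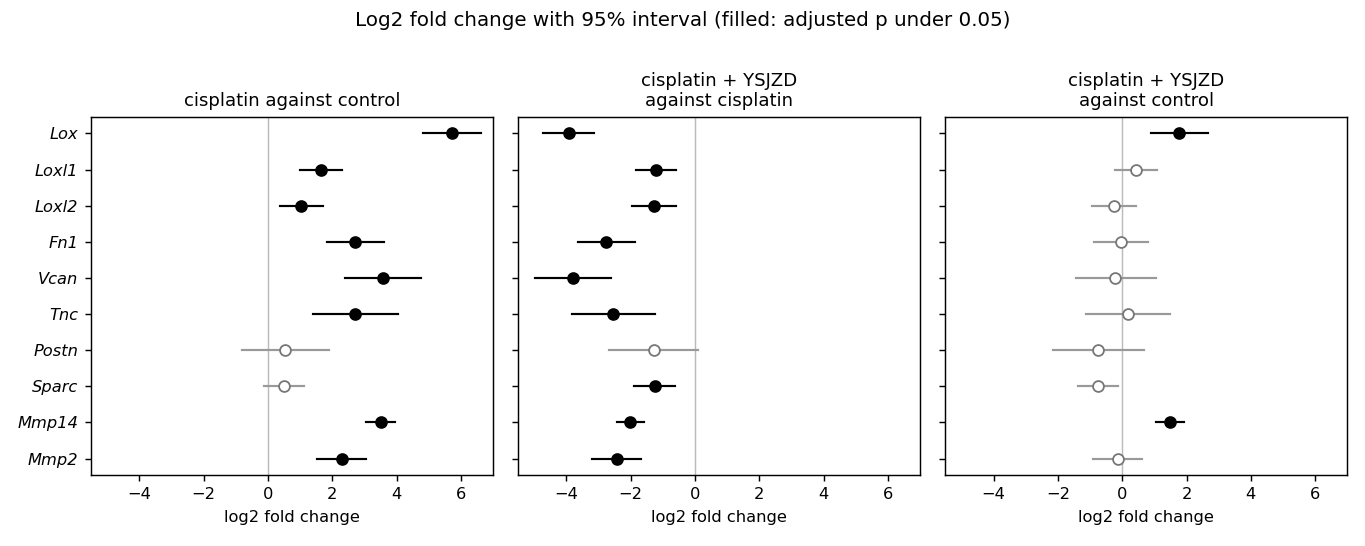
Log2 fold change of each gene with its 95% interval in the 3 comparisons; filled points passed the test. Cisplatin against control spans 0.50 to 5.71, cisplatin with YSJZD against cisplatin spans -3.93 to -1.21, and against control only Lox (1.78) and Mmp14 (1.48) are filled.

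Lox (Entrez gene 16948) encodes lysyl oxidase itself, the founding enzyme of the family, and had the greatest change of the 10 genes. It stood at 6.36, 6.69 and 4.69 CPM in the YSJZD libraries, at 131.0, 93.6 and 45.3 CPM in the cisplatin libraries and at 1.38, 1.82 and 1.92 CPM in the control libraries. All cisplatin libraries lay far above all others, all YSJZD libraries lay above all control libraries, and no groups overlapped. Lox rose with cisplatin by a log2 fold change of 5.71 ± 0.41 (SE of the fit; adjusted p = 3.84e-06, edgeR), which is 52.3-fold. It fell with the decoction relative to cisplatin by 3.93 ± 0.36 on the log2 scale (adjusted p = 7.91e-05), and it remained 3.44-fold above control (log2 fold change 1.78 ± 0.40, adjusted p = 0.0115). That last call was lost without control replicate 1 (log2 fold change 1.65, adjusted p = 0.055), in limma-voom (1.76, adjusted p = 0.136) and with limma on log2 FPKM with a pseudocount of 1 (0.80, adjusted p = 0.117). The 3 control libraries held 19, 25 and 29 counts of Lox, so its baseline rests on few reads.

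The paralogs Loxl1 and Loxl2 moved in the same directions and by less. Loxl1 (Entrez gene 16949), which encodes the form known for elastic fibre maintenance, stood at 11.6, 11.4 and 10.1 CPM in YSJZD libraries, 26.6, 34.7 and 15.1 CPM in cisplatin libraries and 6.04, 8.52 and 9.74 CPM in control libraries. None of its groups overlapped. It rose with cisplatin by a log2 fold change of 1.65 ± 0.29 (edgeR, adjusted p = 0.000873) and fell with the decoction relative to cisplatin by 1.21 ± 0.29 (adjusted p = 0.00912). Against control its YSJZD value was 0.44 ± 0.29, with a 95% interval of -0.21 to 1.09 (adjusted p = 0.332).

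Loxl2 (Entrez gene 94352), which encodes the form known for crosslinking basement membrane collagen, stood at 10.9, 8.53 and 9.73 CPM in YSJZD libraries, 26.3, 32.2 and 12.7 CPM in cisplatin libraries and 9.10, 12.2 and 13.3 CPM in control libraries. Cisplatin replicate 3 lay inside the control range, and the YSJZD libraries overlapped those of control but lay below all cisplatin libraries. Loxl2 rose with cisplatin by 1.04 ± 0.31 on the log2 scale (edgeR, adjusted p = 0.0153). The call was lost without cisplatin replicate 2 (0.76, adjusted p = 0.0639) or without control replicate 1 (0.89, adjusted p = 0.0642). It fell with the decoction relative to cisplatin by 1.29 ± 0.31 (adjusted p = 0.00973), and against control its value was -0.25 ± 0.31 (interval -0.93 to 0.44, adjusted p = 0.625). The remaining family genes were named for their family, with their values already seen. Loxl4 averaged 1.21 ± 0.438 CPM in YSJZD libraries, 5.19 ± 3.86 in cisplatin libraries and 0.903 ± 0.367 in control libraries (SD, n = 3 each), and it rose with cisplatin (2.51 ± 0.65, adjusted p = 0.00806) and fell with the decoction relative to cisplatin (-2.10 ± 0.63, adjusted p = 0.0258). Loxl3 did not pass the test in any comparison (1.10 ± 0.47 with cisplatin, adjusted p = 0.0705).

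Fn1 (Entrez gene 14268), which encodes fibronectin, a dimeric glycoprotein that binds integrins and collagen, was the most abundant of the genes that rose. It stood at 57.7, 52.0 and 71.5 CPM in YSJZD libraries, at 301.5, 700.9 and 223.0 CPM in cisplatin libraries and at 43.8, 69.5 and 72.3 CPM in control libraries. All cisplatin libraries lay above all others, replicate 2 far above the other 2, and the YSJZD libraries lay within the control range. The rise with cisplatin had a log2 fold change of 2.72 ± 0.40 (edgeR, adjusted p = 0.000265) and the fall with the decoction relative to cisplatin was -2.76 ± 0.40 (adjusted p = 0.000793). Against control, the YSJZD value was -0.03 ± 0.38, with an interval of -0.87 to 0.80 (adjusted p = 0.964). Cisplatin replicate 2 set much of the size: without it the values were 2.09 and -2.12, and both calls held.

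Fibronectin mRNA is spliced in 3 places, and one of them, the EDA exon, is known as a mark of cellular fibronectin, the form made by cells in tissue and wounds, as distinct from the plasma form made by liver. The exon is shown because the transcript counts below are split by it. It is exon 33 of 46 and 270 coding bases long (90 codons), at chr1:71603660-71603929 on the minus strand of GRCm38, and was read from the GENCODE M21 transcript in coding direction; no base is capitalised because the whole exon is of interest.
Fn1 EDA exon: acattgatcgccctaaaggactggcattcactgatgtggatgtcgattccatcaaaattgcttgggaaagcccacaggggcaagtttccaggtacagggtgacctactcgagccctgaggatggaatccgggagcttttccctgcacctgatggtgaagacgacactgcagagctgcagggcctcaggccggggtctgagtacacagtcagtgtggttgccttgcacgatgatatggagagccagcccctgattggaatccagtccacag

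The table lists 11 Fn1 transcripts, of which 3 hold this exon, 3 lack it and 5 could not be matched to the annotation. Transcripts with the exon took 24.8%, 39.5% and 31.8% of the annotated Fn1 counts in YSJZD libraries, 21.8%, 20.5% and 24.0% in cisplatin libraries and 61.3%, 39.8% and 41.4% in control libraries. The groups did not overlap in any pair, with the cisplatin libraries lowest and the control libraries highest. The difference of means was -25.4 percentage points for cisplatin against control, 9.92 for YSJZD against cisplatin and -15.5 for YSJZD against control, each with an exact two-sided permutation p of 0.1, the smallest that 3 libraries against 3 allow. Summed over the 3 libraries of a group, without scaling, counts of transcripts with the exon were 3.87 times the control level with cisplatin, while those without it were 11.7 times the control level. Thus both forms were higher with cisplatin, the form without the exon more so. RSEM, which made these values, divides reads among transcripts that share most of their sequence, so such a share depends on few reads that cover the exon or its junction. The 5 unmatched transcripts held 23.4 to 638.1 counts per library and are outside these shares.

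A second alternatively spliced stretch, the variable region, gave a share in the same order of groups. Its longest form, of 467 bases, took 86.5%, 87.6% and 79.0% of annotated Fn1 counts in YSJZD libraries, 76.6%, 73.5% and 82.9% in cisplatin libraries and 97.1%, 90.3% and 85.9% in control libraries. Cisplatin lay below control without overlap (exact permutation p = 0.1), whereas the YSJZD libraries overlapped both cisplatin (exact p = 0.2) and control (exact p = 0.3).

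**Figure D3:**
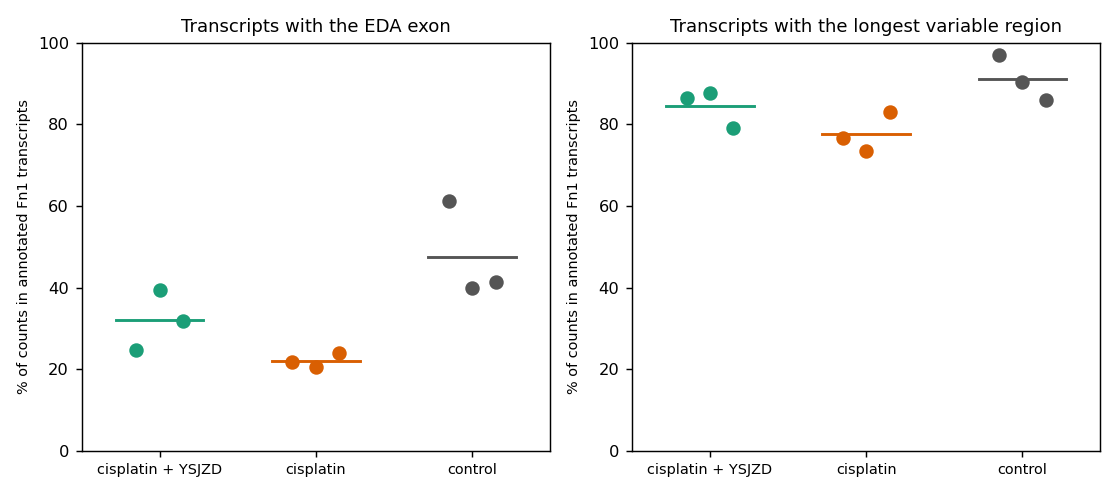
Share of annotated Fn1 counts, in percent, in transcripts with the EDA exon (left) and with the longest variable region (right); points are libraries and bars are group means. The EDA shares run from 24.8% to 39.5% with YSJZD and cisplatin, 20.5% to 24.0% with cisplatin and 39.8% to 61.3% in control.

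Vcan (Entrez gene 13003) encodes versican, a hyaluronan-binding proteoglycan of loose and provisional matrix. It stood at 0.992, 1.05 and 1.07 CPM in YSJZD libraries, 12.0, 19.9 and 11.4 CPM in cisplatin libraries and 0.437, 0.656 and 2.45 CPM in control libraries. All cisplatin libraries lay above all others, including replicate 3, and the YSJZD libraries lay within the control range, which control replicate 3 extended. Vcan rose with cisplatin by a log2 fold change of 3.58 ± 0.53 (edgeR, adjusted p = 0.000288) and fell with the decoction relative to cisplatin by 3.79 ± 0.53 (adjusted p = 0.000713). Its YSJZD value against control was -0.21 ± 0.56 (interval -1.45 to 1.04, adjusted p = 0.841). Without control replicate 3 the rise was 4.70 and the YSJZD value against control 0.91, which is positive and did not pass the test (adjusted p = 0.182). The counts behind these levels were 16 to 18 per library with YSJZD, 183 to 348 with cisplatin and 6 to 37 in control. Among the annotated Vcan transcripts, the one with the 5217-base exon that encodes a glycosaminoglycan attachment region had counts in cisplatin replicates 2 and 3, at 8.42% and 53.0% of Vcan counts. A further Vcan transcript, which could not be matched to the annotation and may or may not hold this exon, had 54.6% to 89.2% of Vcan counts with YSJZD, 21.3% to 71.2% with cisplatin and up to 81.4% in control.

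Tnc (Entrez gene 21923) encodes tenascin C, a hexameric matricellular protein known from wounds and from embryonic mesenchyme. It stood at 7.47, 4.53 and 3.91 CPM in YSJZD libraries, 53.4, 22.4 and 17.6 CPM in cisplatin libraries and 2.77, 2.11 and 9.21 CPM in control libraries. All cisplatin libraries lay above all others, replicate 1 the highest, while the YSJZD libraries lay inside the wide control range. Its rise with cisplatin was 2.72 ± 0.59 on the log2 scale (edgeR, adjusted p = 0.00296), its YSJZD value against cisplatin -2.55 ± 0.58 (adjusted p = 0.00767) and its YSJZD value against control 0.17 ± 0.58 (interval -1.13 to 1.47, adjusted p = 0.877). The rise was 2.08 without cisplatin replicate 1 and 3.66 without control replicate 3, the fall was -1.91 without cisplatin replicate 1, and the calls held. The value against control was 1.12 without control replicate 3 (adjusted p = 0.206).

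Postn (Entrez gene 50706) encodes periostin, a matricellular protein of collagen-rich tissue that also binds integrins. It was one of the rarest of the 10 genes, at 1.28, 0.853 and 0.297 CPM in YSJZD libraries, 1.79, 3.43 and 0.745 CPM in cisplatin libraries and 0.946, 1.82 and 1.32 CPM in control libraries. The groups overlapped in every pair, and 5 to 60 counts per library lay behind these levels. None of its values passed the test: 0.54 ± 0.61 for cisplatin against control (95% interval -0.80 to 1.89, edgeR adjusted p = 0.47), -1.29 ± 0.62 for YSJZD against cisplatin (-2.67 to 0.10, adjusted p = 0.133) and -0.74 ± 0.64 for YSJZD against control (-2.16 to 0.67, adjusted p = 0.463). Without cisplatin replicate 2 the first value was -0.09 and the second -0.65, and without cisplatin replicate 3 the second passed (-1.68, adjusted p = 0.0447). The interval for YSJZD against cisplatin includes falls as large as the median of the 10 genes.

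Sparc (Entrez gene 20692) encodes SPARC, a collagen-binding matricellular protein that is abundant in endothelium and mesenchyme. It stood at 111.3, 128.5 and 118.9 CPM in YSJZD libraries, 370.5, 338.0 and 147.3 CPM in cisplatin libraries and 176.9, 214.6 and 211.7 CPM in control libraries. Cisplatin replicates 1 and 2 lay above every control library and cisplatin replicate 3 below every one, while all YSJZD libraries lay below both other groups. Sparc against control did not pass the test with cisplatin (0.50 ± 0.28, interval -0.12 to 1.13, edgeR adjusted p = 0.152), and it did without cisplatin replicate 3 (0.81, adjusted p = 0.00122). It fell with the decoction relative to cisplatin (-1.25 ± 0.28, adjusted p = 0.00743). Against control the YSJZD value was -0.75 ± 0.28 (interval -1.38 to -0.12, adjusted p = 0.0915), the lowest of the 10 genes. That value passed in DESeq2 (-0.77, adjusted p = 0.0376), in a fit of the 6 libraries compared (-0.74, adjusted p = 0.00652) and without cisplatin replicate 3 (-0.76, adjusted p = 0.00373).

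Mmp14 (Entrez gene 17387) encodes MT1-MMP, the membrane protease that activates pro-MMP2 and cuts fibrillar collagen at the cell surface. It stood at 23.6, 20.1 and 17.9 CPM in YSJZD libraries, 67.4, 95.1 and 87.9 CPM in cisplatin libraries and 6.33, 6.70 and 9.07 CPM in control libraries. The 3 groups were fully separated, and cisplatin replicate 3 lay between its fellows. Mmp14 rose with cisplatin by a log2 fold change of 3.50 ± 0.20 (11.3-fold, edgeR, adjusted p = 1.98e-06) and fell with the decoction relative to cisplatin by 2.02 ± 0.19 (adjusted p = 9.01e-05). It remained 2.78-fold above control in the YSJZD group (1.48 ± 0.19, adjusted p = 0.000839), a call that held in all 19 alternatives.

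Mmp2 (Entrez gene 17390) encodes gelatinase A, the protease that MT1-MMP activates. It stood at 5.14, 5.18 and 5.87 CPM in YSJZD libraries, 27.9, 42.2 and 17.6 CPM in cisplatin libraries and 3.71, 6.48 and 7.68 CPM in control libraries. All cisplatin libraries lay above all others, and the YSJZD libraries lay within the control range. Mmp2 rose with cisplatin by a log2 fold change of 2.29 ± 0.34 (edgeR, adjusted p = 0.000303) and fell with the decoction relative to cisplatin by 2.44 ± 0.34 (adjusted p = 0.000705). Against control its YSJZD value was -0.14 ± 0.34 (interval -0.91 to 0.62, adjusted p = 0.815).

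For the 8 genes that rose, the place of the YSJZD group relative to control and cisplatin was taken on the log2 CPM scale. A prior count of 2, a small count added to steady low values, was used. The YSJZD difference from control was 42.3% of the cisplatin difference for Mmp14 (1.47 of 3.48), 31.2% for Lox (1.72 of 5.50), 29.0% for Loxl1 (0.46 of 1.59) and 14.7% for Tnc (0.41 of 2.82). It was 4.18% for Vcan, -0.436% for Fn1, -3.57% for Mmp2 and -24.8% for Loxl2. On this scale the YSJZD difference of Vcan from control was 0.16, whereas the fit gave -0.21 ± 0.56, so its sign is not settled. Of the 4 highest, the difference from control itself passed the test for Mmp14 and Lox. Differences between genes in these percentages were not tested. Counting libraries alone, 7 of the 10 genes lay higher with cisplatin than in control without overlap, against 32.4% of all tested genes. Similarly, 9 lay lower with YSJZD than with cisplatin alone, against 23.6% of all tested genes. Between YSJZD and control, Lox, Mmp14 and Loxl1 lay higher without overlap (20.8% of all tested genes did) and Sparc lay lower (19.5% did).

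Promoters were read from the RefSeq table of GRCm38.p6, as windows from 250 bases before to 50 bases after the start, for 5 of the genes. Lox was left out of this search. These are 7 windows: Postn and Tnc with 2 each, and Sparc, Vcan and Mmp14. The windows of Mmp14 and Vcan are shown, as the genes with the greatest rises among those with a window, at chr14:54431348-54431647 on the plus strand and chr13:89742463-89742762 on the minus strand. Capitals mark the letters GGGCGG, the core of the GC box bound by SP1, on either strand.
Mmp14: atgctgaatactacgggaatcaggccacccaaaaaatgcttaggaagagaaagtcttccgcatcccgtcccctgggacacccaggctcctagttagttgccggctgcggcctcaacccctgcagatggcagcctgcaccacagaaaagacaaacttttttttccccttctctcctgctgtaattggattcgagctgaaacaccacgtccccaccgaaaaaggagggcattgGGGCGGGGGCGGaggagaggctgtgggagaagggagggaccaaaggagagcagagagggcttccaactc
Vcan: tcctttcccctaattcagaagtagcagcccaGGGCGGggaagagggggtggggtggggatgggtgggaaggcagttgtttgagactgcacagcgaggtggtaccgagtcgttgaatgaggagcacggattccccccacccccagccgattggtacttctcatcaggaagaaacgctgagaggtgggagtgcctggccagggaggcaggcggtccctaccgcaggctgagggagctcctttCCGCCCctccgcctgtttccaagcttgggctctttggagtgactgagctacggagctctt
Mmp14 holds 2 adjacent copies that begin 19 and 13 bases before the start, and Vcan holds 1 copy 219 bases before the start and 1 on the opposite strand 10 bases before it. Both Tnc windows, which overlap, hold the same single copy. The letters were in 35.7% of all 32851 promoter windows of this length. TGANTCA, the core bound by AP-1, was in none of the 7 windows and in 7.81% of all windows, and GGAATG, the core bound by TEAD factors, was in none of the 7 and in 14.7% of all. TATAAA was in both Tnc windows, overlapping in the genome, and in 1 Postn window, 26 bases before the start, against 13.6% of all windows. No motif overlapped another. These matches describe letters in a window only.

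Levels of different genes were compared per length, as FPKM (fragments scaled to transcript length and library total) summed over the transcripts of a gene. Sparc was highest in each group, at 49.7 ± 3.28 FPKM with YSJZD, 124.1 ± 57 with cisplatin and 73.8 ± 11.3 in control (SD, n = 3 each), and Fn1 ranked 2, at 8.04 ± 1.54, 56.8 ± 37.1 and 7.25 ± 2.18 FPKM in the same groups. The order below them differed by group. Lox ranked 7 of 10 with YSJZD (1.35 ± 0.214 FPKM), 4 with cisplatin (21.7 ± 11) and 9 in control (0.353 ± 0.0737). Mmp14 ranked 3 with YSJZD (5.82 ± 0.764 FPKM) and with cisplatin (24.3 ± 4.03), and 6 in control (1.85 ± 0.473). Vcan and Postn were the lowest pair with YSJZD (0.163 ± 0.0252 and 0.287 ± 0.170 FPKM) and with cisplatin (2.49 ± 1.06 and 0.730 ± 0.503), whereas in control Vcan (0.180 ± 0.147) and Lox were lowest. Neighbours in these orders mostly overlapped between libraries. In control, Sparc and Fn1 stood clear of the gene next below them and every other neighbouring pair overlapped. With cisplatin Fn1 stood clear of Mmp14, and Vcan stood clear of Postn, and the other pairs overlapped. With YSJZD the overlapping pairs were Loxl2 with Mmp2, Lox with Tnc, and Postn with Vcan.

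**Figure D4:**
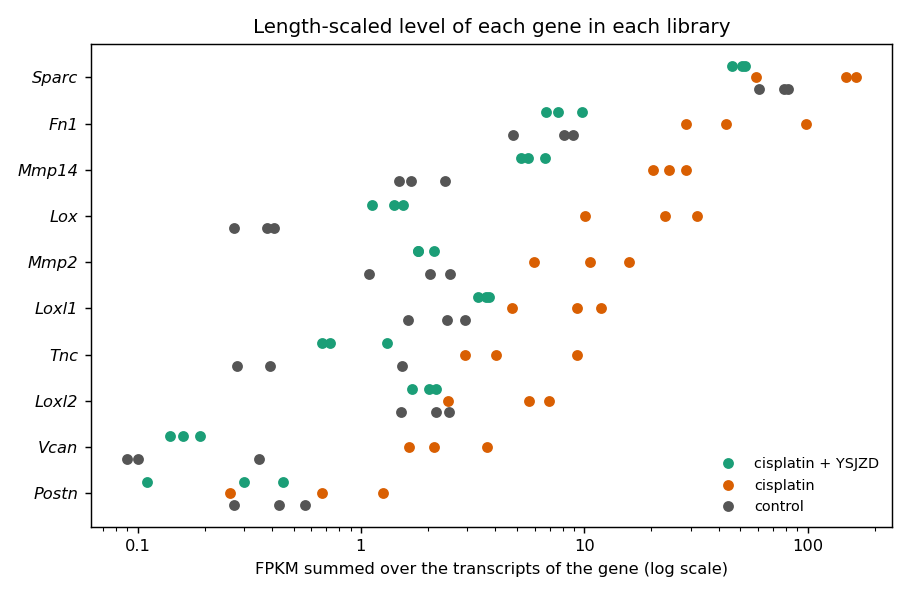
FPKM of each gene on a log axis in each of the 9 libraries, coloured by group, with genes in order of their cisplatin mean. Sparc is highest in each group, and Lox ranks 4 of 10 with cisplatin (mean 21.7 FPKM) and 9 in control (mean 0.353 FPKM).

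Markers of cells that can carry these genes moved with the groups, and their part in the results was not tested. In whole cortex, fewer cells of a type and less RNA per cell cannot be told apart. Summed over 9 fibroblast, pericyte and mesangial markers, the level was 180.0 to 202.5 CPM with YSJZD, 204.1 to 398.9 with cisplatin and 118.5 to 142.2 in control, and 6 of the 9 rose with cisplatin relative to control. With YSJZD relative to cisplatin 3 of the 9 fell. Cisplatin replicate 3 had the lowest of the cisplatin sums, at 204.1. Summed over 7 macrophage markers, the level was 70.9 to 98.7 CPM with YSJZD, 179.1 to 498.0 with cisplatin (replicate 3 lowest) and 87.1 to 123.0 in control, and 5 of 7 rose with cisplatin and 5 fell with YSJZD relative to cisplatin. Over 7 endothelial markers the level was 188.7 to 229.5 CPM with YSJZD, 247.5 to 543.9 with cisplatin (replicate 3 lowest) and 338.0 to 431.2 in control. Of these 7, 1 rose and 2 fell with cisplatin relative to control, and 3 fell with YSJZD relative to cisplatin. Over 5 podocyte markers the level was 160.5 to 184.7 CPM with YSJZD, 195.1 to 283.7 with cisplatin (replicate 3 lowest) and 193.1 to 256.0 in control. In both the endothelial and the podocyte sums, all YSJZD libraries lay below both other groups. Over 6 neutrophil markers the level was 3.86 to 8.41 CPM with YSJZD, 26.6 to 89.1 with cisplatin and 1.17 to 1.46 in control, with replicate 3 in the middle of the cisplatin range. All 6 rose with cisplatin relative to control and fell with YSJZD relative to cisplatin. Of podocyte markers 2 of 5 rose with cisplatin, of platelet markers 2 of 3 rose and 1 fell, and of the 2 tested hepatocyte markers 1 rose and 1 fell. With YSJZD relative to cisplatin, 2 podocyte markers fell, 2 platelet markers fell and 1 rose, and 1 hepatocyte marker fell and 1 rose. All 6 proximal tubule markers, 4 of 4 of the thick ascending limb and 3 of 3 of the distal tubule fell with cisplatin. With YSJZD relative to cisplatin 6, 3 and 2 of these rose, in the same order, as did 2 of 5 collecting duct markers. Of collecting duct markers 3 of 5 fell, while their sum overlapped between groups, at 255.3 to 509.3 CPM with YSJZD, 248.4 to 485.5 with cisplatin and 210.0 to 432.7 in control. No marker of any of these cell types was at 0 in any group. Cisplatin replicate 3 was also the lowest cisplatin library in the sums of proximal tubule (651.7 CPM), platelet (6.83) and hepatocyte (1.37) markers. It was the highest in those of the thick ascending limb (1887 CPM) and distal tubule (93.4).

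For scale in the lists that follow, 28.6% of all tested genes rose and 26.0% fell with cisplatin relative to control (median 0.04), and 17.4% rose and 18% fell with YSJZD relative to cisplatin (median -0.01). Of 22 tested genes for the other lysyl oxidases and collagen processing, 8 rose and 5 fell with cisplatin relative to control (median log2 fold change 0.08), and 3 rose and 5 fell with YSJZD relative to cisplatin (median -0.11). Bmp1, the protease that trims procollagen and activates pro-lysyl oxidase, averaged 13.1 ± 2.07 CPM with YSJZD, 37.1 ± 5.98 with cisplatin and 7.51 ± 2.60 in control (SD, n = 3 each). It rose with cisplatin (2.30 ± 0.26, edgeR, adjusted p = 5.14e-05) and fell with YSJZD relative to cisplatin (-1.50 ± 0.25, adjusted p = 0.0016). Of the collagen hydroxylase genes, P3h2 (-2.28 ± 0.23), P4ha1 (-1.33 ± 0.14) and P4hb (-1.15 ± 0.13) fell with cisplatin (adjusted p at most 5.78e-05). These 3 rose with YSJZD relative to cisplatin (1.76 ± 0.22, 0.67 ± 0.14 and 0.43 ± 0.13, adjusted p at most 0.0266). Plod1 also fell with cisplatin (-0.41 ± 0.12), while Plod3 (0.75 ± 0.20) and P3h3 (0.70 ± 0.21) rose (edgeR, adjusted p at most 0.0163). P3h1, P4ha2 and Plod2 did not pass the test with cisplatin. The count that fell with YSJZD relative to cisplatin was 3 without YSJZD replicate 2 or cisplatin replicate 2, and 2 without cisplatin replicate 1.

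Of 15 tested genes for other matrix metalloproteases, 10 rose and 1 fell with cisplatin relative to control (median 1.61), and 8 fell with YSJZD relative to cisplatin (median -1.33). Mmp8, the neutrophil collagenase, had 881 counts with cisplatin and 1 in control over the 3 libraries of a group, which is a ratio of 720.4 (95% counting interval 129 to 28485). Mmp3 (stromelysin 1) had a ratio of 83.4 (14.6 to 3326), and Mmp10 (stromelysin 2), with 67 counts against 0, was at least 18.3-fold higher by a floor of 3 counts over the group. Both kinds of bound reflect counting error alone. Mmp19 rose with cisplatin (4.87 ± 0.66, edgeR, adjusted p = 0.000158), and Mmp8 (-5.52 ± 0.77), Mmp19 (-3.26 ± 0.57), Mmp10 (-2.60 ± 0.54) and Mmp3 (-2.54 ± 0.61) all fell with YSJZD relative to cisplatin (adjusted p at most 0.00998).

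Of 8 tested metalloprotease inhibitor genes, 6 fell and 1 rose with cisplatin relative to control (median -1.76), and 4 rose and 1 fell with YSJZD relative to cisplatin (median 0.57). The list joins the TIMP genes with others, such as Sfrp1 and Pzp, so its medians do not describe the TIMP genes. The gene that rose was Timp1, an inducible inhibitor of secreted metalloproteases, at 8.96 ± 5.30 CPM with YSJZD, 44.0 ± 8.11 with cisplatin and 0.119 ± 0.0861 in control (SD, n = 3 each; log2 fold change with cisplatin 8.46 ± 0.61, edgeR, adjusted p = 4.01e-06). It fell with YSJZD relative to cisplatin (-2.29 ± 0.38, adjusted p = 0.0015) and remained above control (6.16 ± 0.63, adjusted p = 0.00022). The 3 control libraries together held 5 counts of Timp1, so the size of its differences from control rests on few reads. Timp3, the matrix-bound inhibitor and much the most abundant of the TIMP genes, averaged 1821 ± 73.7 CPM with YSJZD, 1159 ± 73.1 with cisplatin and 3354 ± 375 in control. It fell with cisplatin (-1.53 ± 0.15, adjusted p = 2.15e-05) and rose with YSJZD relative to cisplatin (0.65 ± 0.15, adjusted p = 0.00723). Sfrp1, a secreted Wnt antagonist (-3.79 ± 0.15), and Pzp, an alpha-2-macroglobulin type protease trap (-6.72 ± 0.63), also fell with cisplatin and rose with YSJZD relative to cisplatin (2.35 ± 0.15 and 4.78 ± 0.59, adjusted p at most 0.000347). Timp2 did not pass the test with cisplatin (0.72 ± 0.33, edgeR, adjusted p = 0.0898) or with YSJZD relative to cisplatin (-0.85 ± 0.33, adjusted p = 0.0694). The count of inhibitors that rose with cisplatin was 2 without cisplatin replicate 3 or control replicate 3, and the count that fell with YSJZD relative to cisplatin was 2 without cisplatin replicate 3. For the metalloprotease genes, 1 rose with YSJZD relative to cisplatin without YSJZD replicate 1 or cisplatin replicate 2.

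Of 20 tested integrins and other matrix receptors, only some of which bind fibronectin, tenascin or versican fragments, 15 rose and 1 fell with cisplatin relative to control (median 1.02). With YSJZD relative to cisplatin 10 fell (median -0.82). Itgb3, the beta chain of a fibronectin and vitronectin receptor, averaged 4.12 ± 1.89 CPM with YSJZD, 43.9 ± 18.6 with cisplatin and 1.06 ± 0.614 in control (SD, n = 3 each; with cisplatin 5.35 ± 0.52, edgeR, adjusted p = 2.21e-05; YSJZD against cisplatin -3.41 ± 0.45, adjusted p = 0.000522). Tlr4, a pattern receptor reported to sense fibronectin and tenascin C fragments, averaged 3.38 ± 0.592, 32.8 ± 3.17 and 2.76 ± 0.393 CPM in the same groups (with cisplatin 3.57 ± 0.20, adjusted p = 1.98e-06; YSJZD against cisplatin -3.28 ± 0.20, adjusted p = 4.18e-05). Itga3 and the heparan sulfate proteoglycan gene Sdc1 rose with cisplatin (3.00 ± 0.27 and 3.12 ± 0.29, adjusted p at most 1.66e-05) and fell with YSJZD relative to cisplatin. The count that fell with cisplatin was 2 without cisplatin replicate 1, and 1 receptor gene rose with YSJZD relative to cisplatin without YSJZD replicate 1 or cisplatin replicate 3.

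Of 15 tested matricellular and provisional matrix genes other than the 10, 8 rose and 2 fell with cisplatin (median 1.35), and 6 fell with YSJZD relative to cisplatin (median -0.58). Thbs1 (thrombospondin 1) and Tgfbi, both secreted and matricellular, rose with cisplatin (3.09 ± 0.54 and 4.10 ± 0.46, edgeR, adjusted p at most 0.000831) and fell with YSJZD relative to cisplatin (-2.61 ± 0.53 and -3.09 ± 0.44, adjusted p at most 0.00443). Spp1 (osteopontin) averaged 12268 ± 1386 CPM with YSJZD, 18295 ± 8535 with cisplatin and 287.9 ± 15.7 in control (SD, n = 3 each). It rose with cisplatin (5.99 ± 0.37, adjusted p = 2.03e-06), and its YSJZD value against cisplatin did not pass the test (-0.58 ± 0.30, adjusted p = 0.154). The count of 2 that fell with cisplatin was 1 without cisplatin replicate 2, cisplatin replicate 3 or control replicate 2, and 0 without control replicate 1 or control replicate 3.

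Among hyalectan and hyaluronan genes, the partners of versican, 12 were tested: 5 rose and 3 fell with cisplatin (median 0.66), and 1 rose and 5 fell with YSJZD relative to cisplatin (median -0.48). Cd44, the main hyaluronan receptor, averaged 14.2 ± 7.42 CPM with YSJZD, 97.9 ± 28.9 with cisplatin and 1.09 ± 0.405 in control (SD, n = 3 each; with cisplatin 6.47 ± 0.47, edgeR, adjusted p = 4.15e-06; YSJZD against cisplatin -2.78 ± 0.36, adjusted p = 0.000485). The versican-cutting proteases Adamts4 (ratio 273.9, counting interval 75.5 to 2267) and Adamts1 (1.85 ± 0.23, adjusted p = 8.89e-05) rose with cisplatin. Hapln1, which links hyaluronan to versican, had 0 counts with cisplatin against 190 in control, at least 77.5-fold lower. The 1 rise with YSJZD was lost without YSJZD replicate 2, YSJZD replicate 3 or cisplatin replicate 1.

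Of 19 genes for fibrillar collagens, the substrates of lysyl oxidases, and their partners, 7 rose and 3 fell with cisplatin (median 0.47), and 2 rose and 5 fell with YSJZD relative to cisplatin (median -0.41). Col5a2 averaged 4.36 ± 0.268 CPM with YSJZD, 28.8 ± 14.8 with cisplatin and 4.81 ± 1.51 in control (SD, n = 3 each; with cisplatin 2.58 ± 0.40, edgeR, adjusted p = 0.000384; YSJZD against cisplatin -2.72 ± 0.40, adjusted p = 0.000858). Col12a1 (2.64 ± 0.52) and Dcn, the collagen-binding proteoglycan decorin (1.24 ± 0.28), rose with cisplatin as well (adjusted p at most 0.0037), while Fmod (fibromodulin) fell (-2.97 ± 0.56, adjusted p = 0.00128). The count that fell with cisplatin was 1 without control replicate 2 or control replicate 3. With YSJZD relative to cisplatin, the count that rose was 0 without YSJZD replicate 2 or cisplatin replicate 3, and 1 without YSJZD replicate 1, YSJZD replicate 3, cisplatin replicate 1 or cisplatin replicate 2. The count that fell in that comparison was 8 without cisplatin replicate 3, and 3 without YSJZD replicate 2, YSJZD replicate 3, cisplatin replicate 1 or cisplatin replicate 2.

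Of 17 elastic fibre and microfibril genes, 7 rose and 3 fell with cisplatin (median 0.60), and 1 rose and 6 fell with YSJZD relative to cisplatin (median -0.81). Emilin1 (1.74 ± 0.23), Emilin2 (4.29 ± 0.61), Ltbp2 (5.37 ± 0.71) and Efemp2, which is known to bring lysyl oxidase to elastin (1.56 ± 0.19), rose with cisplatin (edgeR, adjusted p at most 0.000234). All 4 fell with YSJZD relative to cisplatin (adjusted p at most 0.00815). The 3 that fell with cisplatin were Ltbp4 (-1.61 ± 0.26), Fbln5 (-0.95 ± 0.32) and the elastin gene Eln (-1.16 ± 0.30, edgeR, adjusted p at most 0.0286). Eln was the gene that rose with YSJZD relative to cisplatin (0.88 ± 0.30, adjusted p = 0.0425). The 1 rise with YSJZD was present neither without YSJZD replicate 1, YSJZD replicate 2 or cisplatin replicate 3 nor without any one control library. Of 22 basement membrane genes, some of them for collagens that MMP2 cuts, 10 rose and 5 fell with cisplatin (median 0.28). With YSJZD relative to cisplatin 3 rose and 9 fell (median -0.63). Col18a1 (2.78 ± 0.29) and Agrn (1.63 ± 0.18) rose with cisplatin, and Col4a4 fell (-1.79 ± 0.13, adjusted p at most 4.45e-05 for all 3). The count of basement membrane genes that fell with YSJZD was 5 without YSJZD replicate 2 and 4 without YSJZD replicate 3.

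**Figure D5:**
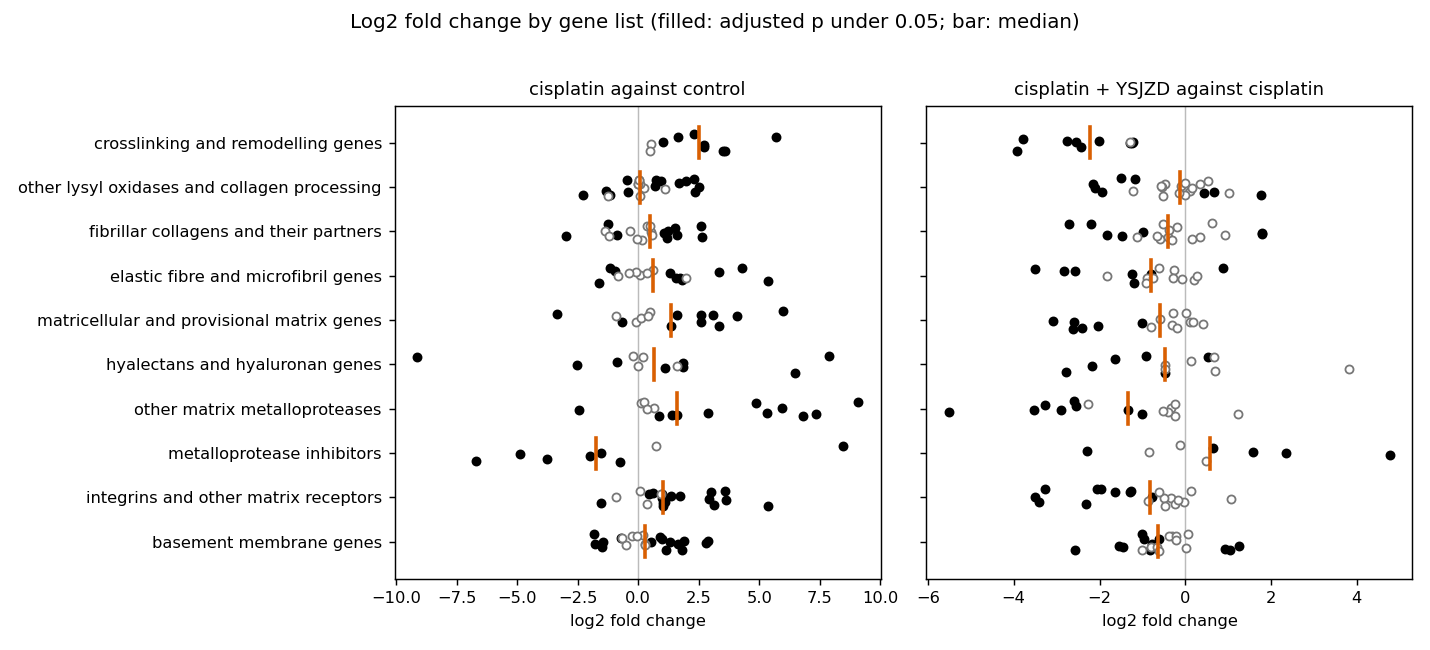
Log2 fold change of every tested gene of each list (rows), for cisplatin against control (left) and cisplatin with YSJZD against cisplatin (right); filled points passed the test and bars are medians. The medians of the crosslinking and remodelling genes are 2.50 and -2.23, and those of the inhibitor list are -1.76 and 0.57. That list joins the TIMP genes with others, and its genes differ in direction. Points of genes at 0 counts in a group, such as Hapln1, are fitted values and no measure of fold.

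The genes outside the 10 with the nearest pattern over the 9 libraries were found by the root mean square difference of log2 CPM, each gene centred on its control mean, among 13201 genes of at least 1 CPM. For Lox these were Krt12 at 0.49 and Ms4a6d at 0.54. For Loxl1 they were Ecm1 (0.17) and Rasa3 (0.18), for Loxl2 Fkbp10 (0.12) and Itga9 (0.14), and for Fn1 Vav1 (0.23) and Apbb1ip (0.27). For Vcan they were F7 (0.47) and Gm14548 (0.50), for Tnc Garnl3 (0.39) and Numbl (0.48), and for Postn Prex1 (0.46) and Islr (0.47). For Sparc they were Nrp2 (0.18) and Nova2 (0.22), for Mmp14 Klf4 (0.27) and Sox4 (0.29), and for Mmp2 Col5a2 (0.21) and Pik3cd (0.27). Within the 10, Fn1 and Mmp2 were the nearest pair, at 0.27, while the nearest of the 10 to Lox was Mmp14, at 1.26.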

How the data were processed

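Total RNA from 50 mg of kidney tissue was made into libraries and sequenced on a DNBSEQ instrument, per the labels' protocols. Per the file headers, the authors deposited a read count and an expression value for each of 58075 RefSeq transcripts and 9 libraries. RSEM 1.3.1 and DESeq2 1.4.5 are named in the submitters' processing notes, and RSEM makes the deposited read counts expected counts. The notes name GRCh38, a human build. Which aligner and which mouse build were used is not given in the sources used here. The unit of the deposited expression columns, FPKM, was inferred, because the transcript length they imply was the same in every library (ratio 0.998 to 1.004 over 6524 transcripts with at least 5 FPKM everywhere).

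Expected counts were summed per Entrez gene and rounded, which gave 17963 genes, 17847 with a symbol in the RefSeq table of GRCm38.p6; 16.5% to 19.3% of a library's gene counts were not whole (tolerance 0.005). All 9 libraries were fitted in edgeR 4.0.16 (R 4.3.3) with filterByExpr, TMM factors (0.855 to 1.105) and group as the only term. The quasi-likelihood test was two-sided, with Benjamini-Hochberg adjustment over the 13954 genes kept, 4009 having been removed. A gene was called at an adjusted p under 0.05, and the 2-fold threshold follows the study's design text. The common biological coefficient of variation was 0.234. Values after ± are the SE of the fit for log2 fold changes and the SD over 3 libraries for levels. Shares of Fn1 transcripts were compared with exact permutation tests over libraries. The code of the fit was run on simulated data with few changed genes, all raised, and the same spread for every gene. These settings differ from the data here, so that run does not show how the fit does on them. No 2 libraries of a group agreed within sampling noise (chi-square per gene at least 21.2).

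The 10 genes, the gene lists and the cell type markers were chosen with earlier results of these data known. Named beside the 10 genes are up to 4 tested genes of each list by smallest p in cisplatin against control. Also named are the 2 nearest genes in pattern for each of the 10. Loxl3, Loxl4, the further collagen hydroxylase genes, Eln, Ltbp4, Fbln5 and Timp2 were added later, with their values already seen. Among the genes chosen from the lists, 1 is not reported here. Alternatives were other scalings and filters, DESeq2 1.42.0, limma-voom (limma 3.58.1), limma on log2 FPKM, the 6 libraries compared alone, a replicate block, and leaving out each library.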

Additional observations from a re-analysis of the deposited data

How the results depend on the processing

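Each of the 3 comparisons was recomputed under 19 alternatives for the 10 genes, which gave 189 values a comparison because Postn did not pass a filter of 5 CPM. In cisplatin against control 185 values kept direction and call, and in YSJZD against cisplatin 188 did; in YSJZD against control 165 did, and 18 changed sign. All sign changes were of values that had not passed the test. In YSJZD against control, Fn1 was -0.03 and became 0.15 with library totals and no composition factor, 0.02 with the replicate block, and 0.18 and 0.16 with limma on log2 FPKM at pseudocounts of 0.1 and 1; leaving out 1 library at a time gave -0.23 to 0.09. Mmp2 was -0.14 and became 0.03 with library totals and 0.10 and 0.05 with limma on log2 FPKM at the same pseudocounts, and -0.39 to 0.08 with 1 library left out. Vcan was -0.21 and became 0.17 in limma-voom and 0.03 with limma on log2 FPKM at a pseudocount of 0.1, and -0.59 to 0.91 with 1 library left out. Tnc (0.17) ranged from -0.18 to 1.12 with 1 library left out, and Postn in cisplatin against control (0.54) from -0.09 to 0.93. The cause of these changes was not tested.

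The number of the 10 genes called was 8 in cisplatin against control (7 to 9 with 1 library left out), 9 in YSJZD against cisplatin (9 to 10) and 2 in YSJZD against control (1 to 3). In the last comparison it was 1 in limma-voom and 1 with limma on log2 FPKM at a pseudocount of 1, where Lox was lost. That pseudocount shrinks low genes, and the rise with cisplatin was then 3.93 for Lox, 1.53 for Vcan and 1.83 for Tnc. Over all tested genes 2694 were called in YSJZD against control, and 1607 to 3138 with 1 library left out: 1607 without control replicate 1 and 1699 without control replicate 2. The groups share replicate numbers, and the labels state no pairing. Deviations of same-numbered libraries from their group means correlated at -0.2 to 0.092, over 0.1 in 0 of 9 pairs. With 3 libraries a group this check is weak, so it cannot exclude that the numbers pair the samples. With the replicate number as a block, 7348, 4590 and 2367 genes were called in cisplatin against control, YSJZD against cisplatin and YSJZD against control, with 8, 9 and 2 of the 10 genes, as without it (7616, 4942 and 2694 genes). Library totals without a composition factor shifted the median of all genes to 0.27 in cisplatin against control and 0.20 in YSJZD against control, and the share of called genes that were higher to 66.1% and 75.4%, against 52.4% and 51.4% with TMM. Few counts lay behind Postn (5 to 60 a library), Vcan with YSJZD (16 to 18) and in control (6 to 37), and Lox in control (19 to 29).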
